A study of Mus musculus with 11 samples.

Results

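Colonic expression was examined for 10 genes of lipid uptake and lipoprotein assembly, namely Apoa1, Apoa4, Apob, Apoe, Mttp, Fabp1, Fabp2, Cd36, Dgat1 and Dgat2. They were chosen by symbol for their roles in lipid absorption, out of 43346 genes in the count table, and each symbol matched 1 row. RNA sequencing had been performed on the colon of 5 germ-free and 6 humanized mice, all of them male Swiss Webster mice studied at 8 to 10 weeks of age. Germ-free mice carry no microbes. Humanized mice began as germ-free mice, were gavaged at 4 to 5 weeks of age with 300 μL of stool suspension from 1 human donor, and were then left 4 to 5 weeks for the microbiota to adapt. According to the study's methods, mice of both groups were singly housed in vinyl isolators and fed the same autoclaved diet. Because a single donor was used, nothing here separates colonization in general from colonization with that community.

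Dietary fat is absorbed mainly in the small intestine. Fatty acids enter the enterocyte, are bound by fatty acid-binding proteins, and are rebuilt into triglyceride, whose last step is catalyzed by the DGAT enzymes. The microsomal triglyceride transfer protein Mttp loads this triglyceride onto apolipoprotein B, and the particle, joined by the apolipoproteins A-I and A-IV, leaves the cell as a chylomicron. The colon expresses parts of this machinery at lower levels, and its macrophages and blood vessels carry other parts of it, such as apolipoprotein E and the fatty acid translocase CD36.

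Reads counted on genes ranged from 49097005 to 64148538 per germ-free mouse and from 39125290 to 54219854 per humanized mouse. Expression is given as RPKM (reads scaled to gene length and library size, TMM-normalized), a scale on which levels of different genes can be compared. The log2-fold change (LFC) is that of humanized over germ-free mice, tested with edgeR's exact test and called at a false discovery rate (FDR) below 0.01. All 10 genes passed the filter on low counts, Fabp1 only through its counts in humanized mice. The 11 markers of intestinal epithelium summed to 9342 to 12584 CPM (counts scaled to library size) in germ-free mice and to 10727 to 15220 CPM in humanized mice (exact permutation test, two-sided p = 0.0476). That difference was not stable, since p rose to between 0.0635 and 0.1 when any of 9 of the 11 mice was left out and to 0.416 under total-count normalization. All 11 had an LFC above 0, with a median of 0.33, and 3 were called higher. The 14 markers of small intestinal enterocytes summed to between 752 and 1647 CPM. Of the latter, Mgam was at 242 to 389 CPM and Slc10a2 at 163 to 382 CPM, while Lct and Gata4 stayed below 0.5 CPM throughout. Of the libraries, humanized mouse 6 stood apart for these genes. It had the highest level among humanized mice for 7 of the 10 genes (70%), compared with 11.6% of all genes tested. Humanized mouse 5 had the lowest levels of 2 of the 10 genes (20%, against 28.2% of all genes), Apoe and Cd36, together with the lowest sums of endothelial and macrophage markers. Results that rest on either of these mice are given with and without it.

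Of the 10 genes, 2 were higher in humanized mice at FDR below 0.01 (Fabp1, from counts near 0, and Dgat2) and 0 were lower. For comparison, 9.2% of the 19863 genes tested were higher and 10.1% were lower. Without normalization beyond the library total, the calls over all genes changed from 1827 higher and 1999 lower to 773 higher and 3609 lower, and the median LFC moved by −0.18, so that small LFC values depend on the normalization. Of the 10 genes, 2 were then higher and 2 lower (Apob and Cd36), as they also were under scaling to epithelial markers, and without humanized mouse 6 the 2 lower genes were Apoa1 and Apob. The median LFC of the 10 genes was 0.16, with 6 above 0 and 4 below, beside a median of 0.01 over all genes. For 3 of the 10 genes, germ-free and humanized mice had no overlap in RPKM (Fabp1, Dgat2 and Cd36), compared with 18.4% of all genes tested. At an unadjusted p below 0.05, 6 of the 10 genes passed edgeR's exact test, against 37.4% of all genes tested, and 5 passed each of edgeR's quasi-likelihood test (39.2% of all genes) and DESeq2 (39.9% of the genes it gave a p, which left out Mttp).

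**Figure D1:**
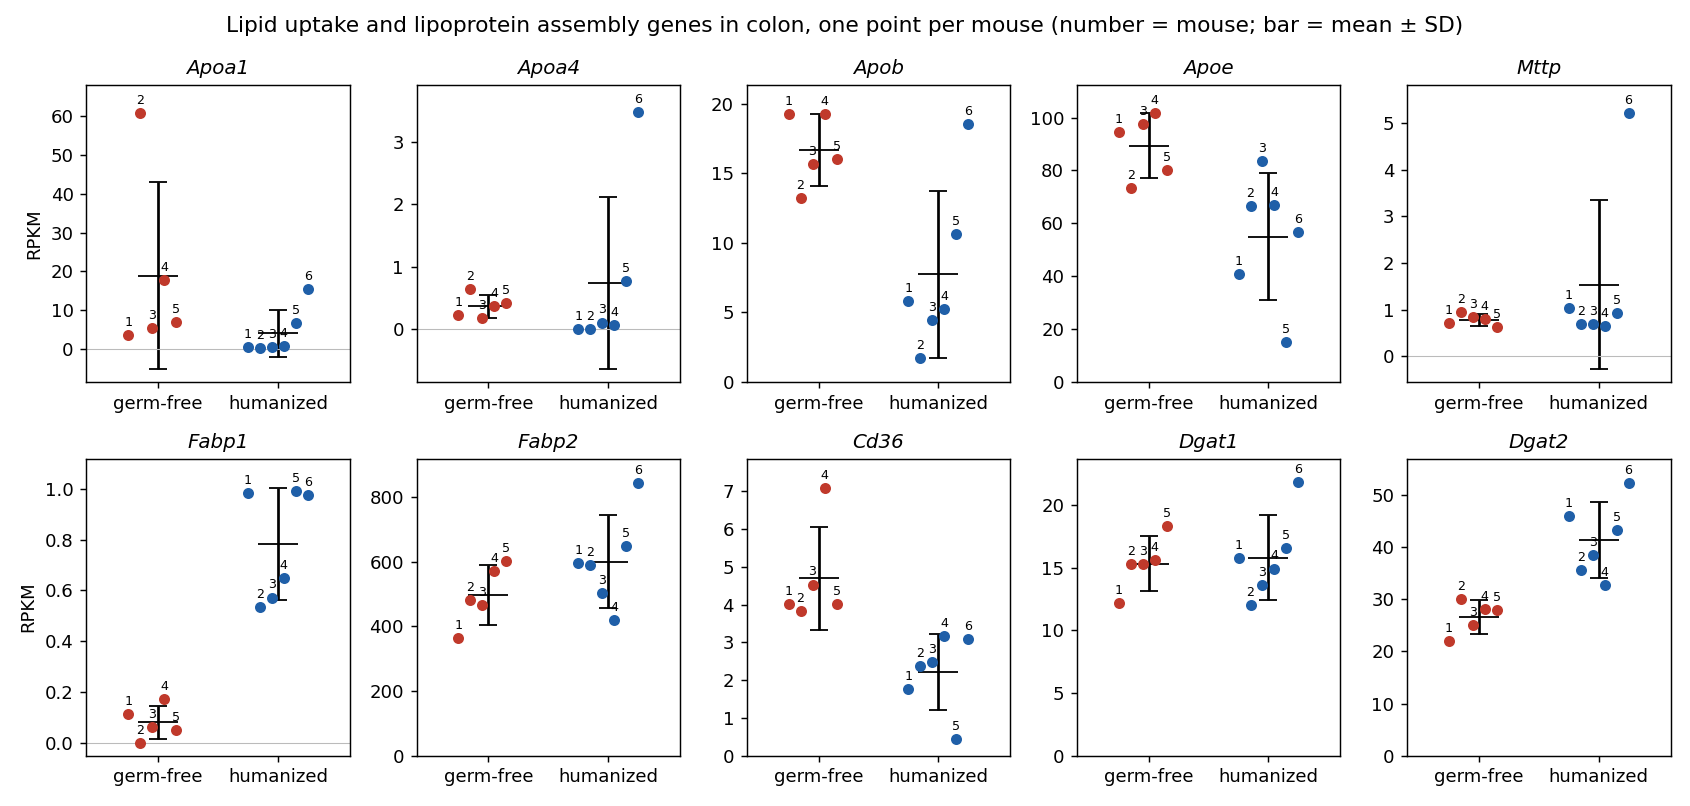
RPKM of each of the 10 genes in colon, with 1 panel per gene, 1 numbered point per mouse and a bar for the mean ± SD of the 5 germ-free and 6 humanized mice. Fabp1 and Dgat2 lie higher in every humanized mouse than in any germ-free mouse and Cd36 lies lower. Humanized mouse 6 is the highest of the humanized mice for Apoa1, Apoa4, Apob and Mttp, and stands far above all others for Apoa4 and Mttp.

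Of the 10 genes, Fabp1 had the largest LFC in size, and Fabp2 the highest level. Fabp1, the liver-type protein that binds fatty acids and other lipid ligands, was 9.13-fold higher in humanized mice, but from a level close to the detection limit. Fabp2, the intestinal-type protein, was among the most abundant transcripts of the colon in both groups and did not pass the test. Their promoters, 250 bases before to 50 bases after the start site, are shown because both genes encode fatty acid-binding proteins and differed widely in level and in LFC. The sequences are from RefSeq on GRCm38.p6 and are written 5′ to 3′ on the strand of the gene. Capitals mark the motifs TATAAA (the TATA box), CAAAG (part of the sequence that HNF4 factors bind) and AGGTCA (the core hexamer of nuclear receptors), in either orientation. The first window lies at chr6:71199629-71199928 on the plus strand and the second at chr3:122894822-122895121 on the plus strand.
Fabp1: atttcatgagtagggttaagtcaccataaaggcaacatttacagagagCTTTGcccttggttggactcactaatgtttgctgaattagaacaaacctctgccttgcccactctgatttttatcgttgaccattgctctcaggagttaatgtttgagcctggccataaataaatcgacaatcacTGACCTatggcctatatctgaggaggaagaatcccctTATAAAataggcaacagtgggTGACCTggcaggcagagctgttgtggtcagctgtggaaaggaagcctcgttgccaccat
Fabp2: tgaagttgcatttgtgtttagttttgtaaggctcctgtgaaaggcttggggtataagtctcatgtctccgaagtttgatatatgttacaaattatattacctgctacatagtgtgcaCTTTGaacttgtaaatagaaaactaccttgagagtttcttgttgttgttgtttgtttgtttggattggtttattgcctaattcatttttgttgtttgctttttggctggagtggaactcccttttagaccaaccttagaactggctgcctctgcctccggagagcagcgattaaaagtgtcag
The Fabp1 window holds TATAAA at −30 and AGGTCA on the opposite strand at −67 and −9, and the Fabp2 window holds neither. Both windows hold CAAAG on the opposite strand, at −202 in Fabp1 and at −133 in Fabp2. Of 32851 windows of this length in the RefSeq table, 13.6% hold TATAAA, 16.3% hold AGGTCA and 53.9% hold CAAAG on either strand, so these matches are a description of the letters only. CAAAG is also contained in CAAAGT, which 14.4% of windows and 3 of the 8 windows found for the 10 genes hold. The remaining motifs searched on both strands were GTTAAT (7.1% of windows, 1 of 8), TGACGT (7.51%, 1 of 8) and GATAAG (7.44%, 2 of 8).

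Fabp1 (ENSMUSG00000054422, chromosome 6, 71199827 to 71205023 on mm10) was counted 4, 0, 2, 6 and 2 times in germ-free mice 1 to 5, which corresponds to RPKM values of 0.115, 0, 0.0618, 0.174 and 0.0517. In humanized mice it was counted between 11 and 27 times, with RPKM values of 0.536 at the lowest, 0.812 at the median and 0.990 at the highest. A count of 0 allows up to 3 counts, or 0.0776 to 0.148 RPKM depending on the mouse. Every humanized mouse therefore lay above every germ-free mouse and above that limit. The mean rose from 0.0804 ± 0.0662 (SD, n = 5) to 0.785 ± 0.221 (SD, n = 6), with an LFC of 3.19 (SE 0.47, 95% interval 2.26 to 4.12, FDR = 4.5e-12 by edgeR's exact test). The quasi-likelihood test gave a larger FDR of 0.000699, and an exact two-sided permutation test gave p = 0.00216, the smallest that 5 against 6 mice allow. Because its germ-free counts alone would not have passed the filter, the test was repeated without a filter, where Fabp1 was also called (LFC 3.19, FDR = 1.66e-10 by edgeR's exact test over 30533 genes). It was not tested where 10 counts were required in every mouse. Fabp1 reached only the 24.1 percentile of tested genes in humanized mice.

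Fabp2 (ENSMUSG00000023057, chromosome 3, 122895072 to 122899506) stood at the 99.7 percentile in both groups. Its RPKM values were 365, 482, 466, 572 and 602 in germ-free mice 1 to 5. In humanized mice they were 419 at the lowest, 592 at the median and 843 at the highest, the last in mouse 6. The groups overlapped widely. Means were 498 ± 94.0 (SD, n = 5) and 599.8 ± 144 (SD, n = 6), and the LFC of 0.27 (SE 0.17, 95% interval −0.06 to 0.60) did not pass (FDR = 0.260, edgeR's exact test). Fabp2 lies within the annotated span of 4933405D12Rik, which had at most 48 counts in any mouse, and the library kit does not mark strand, so that reads of the overlapping genes cannot be told apart.

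Cd36, which takes up long-chain fatty acids in fat, muscle, vessels and macrophages as well as in enterocytes, was lower in all humanized mice than in any germ-free mouse, but missed the threshold. Cd36 (ENSMUSG00000002944, chromosome 5, 17781690 to 17888959) had RPKM values of 4.02, 3.83, 4.53, 7.09 and 4.03 in germ-free mice 1 to 5. In humanized mice it ranged from 0.450 in mouse 5 through a median of 2.43 to a highest value of 3.17 in mouse 4. Means were 4.70 ± 1.36 (SD, n = 5) and 2.22 ± 1.01 (SD, n = 6). The LFC was −1.08 (SE 0.36, 95% interval −1.79 to −0.37, FDR = 0.0165 by edgeR's exact test), and the exact two-sided permutation test gave p = 0.00649. Without humanized mouse 5 the LFC was smaller, at −0.87, but the FDR fell to 2.68e-04, so that Cd36 was then called, in a fit where 9.52% of all genes were higher and 11.5% lower. It was also called under total-count normalization, with an LFC of −1.24 (FDR = 0.00713, edgeR's exact test), and when libraries were scaled to 11 epithelial markers, with an LFC of −1.31 (FDR = 0.00523).

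Endothelial and smooth muscle markers moved with Cd36. The 9 endothelial markers summed to 157 to 182 CPM in germ-free mice and to 19.7 to 149 CPM in humanized mice (exact permutation test, two-sided p = 0.00649). All 9 had an LFC below 0, with a median of −0.95, although 0 of them were called. The 9 smooth muscle markers were all called lower, and their sum fell from a range of 814 to 2338 CPM to one of 94.8 to 842 CPM (exact permutation p = 0.00649). Germ-free mouse 4, with the highest Cd36, also had the highest sums of endothelial and smooth muscle markers. The 9 adipocyte markers, most of whose sum was Pck1, summed to 251 to 293 CPM in germ-free mice and to 225 to 285 CPM in humanized mice (exact permutation p = 0.0996), with 271 CPM in germ-free mouse 4, and 1 of 5 tested was called lower. The difference of −19.7 CPM became −53.8 CPM under total-count normalization (exact permutation p = 0.00866). It was −26.9 CPM without humanized mouse 4 (exact permutation p = 0.0238) and −24.7 CPM without germ-free mouse 5 (exact permutation p = 0.0381). Within that list germ-free mouse 4 had the highest Adipoq (5.33 CPM, beside at most 1.03 CPM elsewhere) and the lowest Pck1 (193 CPM). The part of these cells in the result was not tested, and in RNA of colonic tissue fewer cells of a type cannot be told apart from less RNA per cell. When Cd36 was divided by the summed endothelial markers within each mouse, a scale chosen after the data were seen, the log2 ratio differed by −0.19 (exact permutation p = 0.357, 0.357 after Benjamini–Hochberg adjustment over 6 such ratios). Divided by the summed macrophage markers it differed by −0.94 (exact permutation p = 0.00866, adjusted 0.0260). The macrophage sum was carried in good part by Lyz2, the 1 marker of 10 with an LFC above 0, and with the other 9 the difference was −0.56 (exact permutation p = 0.0584, adjusted 0.117).

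**Figure D2:**
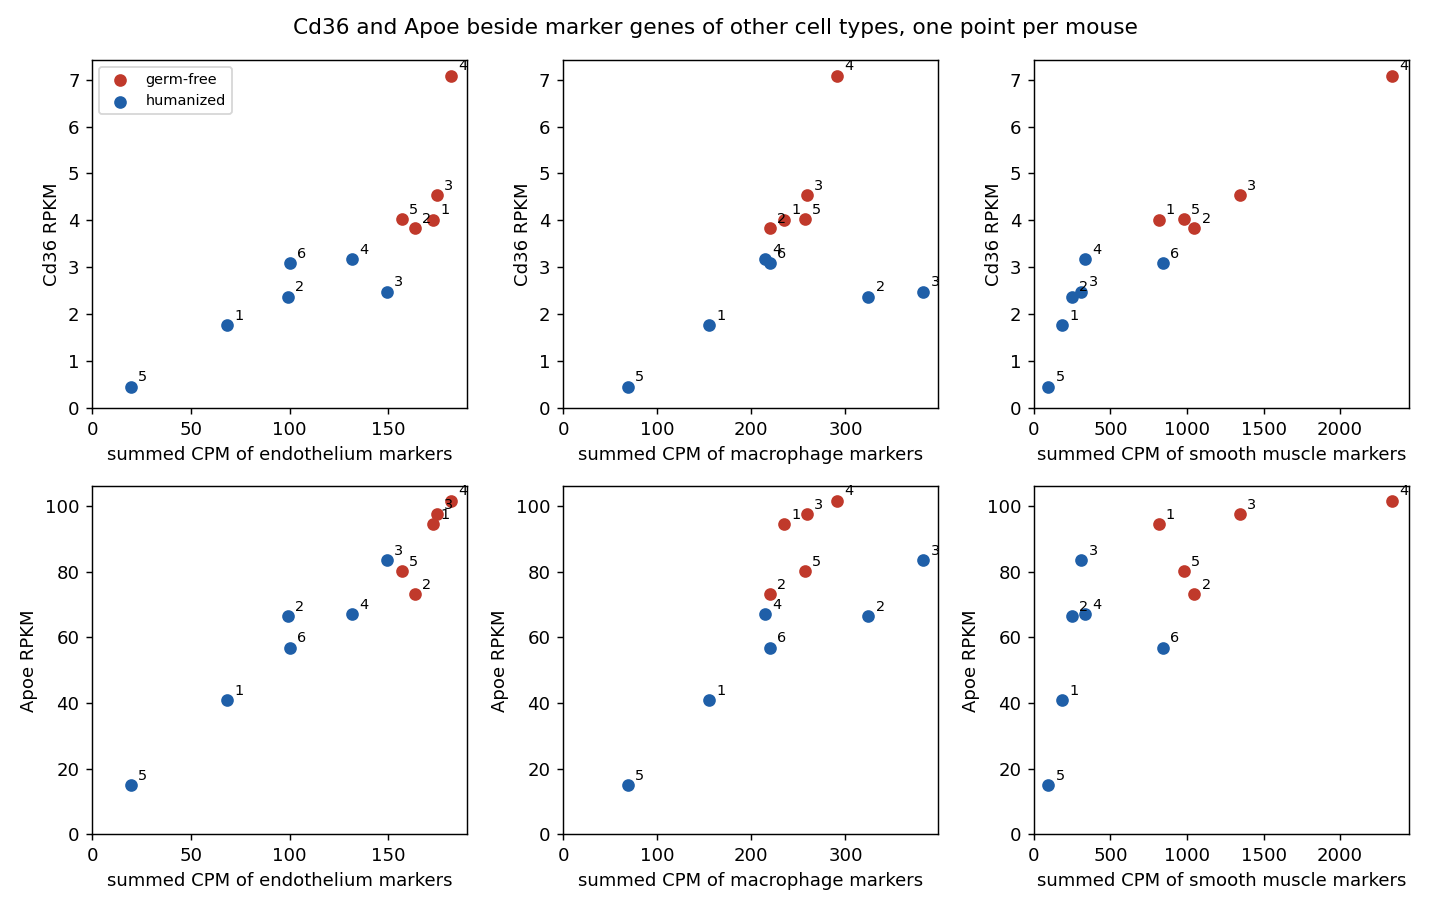
RPKM of Cd36 and Apoe on the vertical axes against the summed CPM of endothelial, macrophage or smooth muscle markers on the horizontal axes, 1 numbered point per mouse (red, germ-free, and blue, humanized). Humanized mouse 5 has the lowest values on all axes, 0.450 RPKM for Cd36, 15.0 RPKM for Apoe, 19.7 CPM for endothelial, 68.9 CPM for macrophage and 94.8 CPM for smooth muscle markers.

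The DGAT enzymes, which are unrelated in sequence family and both join a fatty acid to diacylglycerol, behaved differently. Dgat2 rose in humanized mice and Dgat1 did not pass the test. Dgat2 (ENSMUSG00000030747, chromosome 7, 99153663 to 99182713) had RPKM values of 21.9, 30.0, 25.0, 28.1 and 27.9 in germ-free mice 1 to 5. Among humanized mice it was 32.8 at the lowest, 40.9 at the median and 52.2 at the highest. The groups did not overlap, with every humanized mouse above the highest germ-free mouse. Means were 26.6 ± 3.17 (SD, n = 5) and 41.4 ± 7.21 (SD, n = 6), which is 1.56-fold higher with an LFC of 0.64 (SE 0.12, 95% interval 0.40 to 0.87, FDR = 1.34e-05 by edgeR's exact test). The exact two-sided permutation test gave p = 0.00433. Scaled to the epithelial markers, the LFC of Dgat2 was 0.38 (FDR = 0.00538, edgeR's exact test), and Dgat2 was still called. The part of the epithelial share in the LFC was not tested.

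Dgat1 (ENSMUSG00000022555, chromosome 15, 76502015 to 76511951) had 12.2, 15.3, 15.3, 15.6 and 18.3 RPKM in germ-free mice 1 to 5. Humanized mice lay between 12.0 and 21.9 RPKM, with a median of 15.4. The ranges overlapped almost fully. Its LFC was 0.04 (SE 0.14, 95% interval −0.23 to 0.32, FDR = 0.870 by edgeR's exact test), an interval that holds both a small decrease and a small increase, and the sign turned under other normalizations. The log2 ratio of Dgat1 to Dgat2 within a mouse, in which the scaling of libraries cancels apart from a pseudocount of 0.1 RPKM, was −0.79 ± 0.14 (SD, n = 5) for the germ-free group and −1.39 ± 0.17 (SD, n = 6) for the humanized group. The difference of −0.60 was larger than the spread between mice (exact two-sided permutation p = 0.00216, adjusted 0.00289 over 4 ratios of paired genes).

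Apob, the structural protein of chylomicrons, and Mttp, which loads it with lipid, act in the same step. Apob was lower in 5 of 6 humanized mice than in any germ-free mouse. Mttp was low in every mouse except humanized mouse 6. Their promoter windows are shown because the 2 genes serve 1 assembly step, with the same marking and source as for the fatty acid-binding proteins. The Apob window lies at chr12:7977427-7977726 on the plus strand and the Mttp window at chr3:138143369-138143668 on the minus strand.
Apob: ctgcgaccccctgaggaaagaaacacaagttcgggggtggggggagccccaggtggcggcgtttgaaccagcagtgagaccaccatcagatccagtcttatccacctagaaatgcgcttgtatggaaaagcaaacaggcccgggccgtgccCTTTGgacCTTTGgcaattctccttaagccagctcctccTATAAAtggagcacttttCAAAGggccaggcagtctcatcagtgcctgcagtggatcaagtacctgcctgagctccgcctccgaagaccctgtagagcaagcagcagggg
Mttp: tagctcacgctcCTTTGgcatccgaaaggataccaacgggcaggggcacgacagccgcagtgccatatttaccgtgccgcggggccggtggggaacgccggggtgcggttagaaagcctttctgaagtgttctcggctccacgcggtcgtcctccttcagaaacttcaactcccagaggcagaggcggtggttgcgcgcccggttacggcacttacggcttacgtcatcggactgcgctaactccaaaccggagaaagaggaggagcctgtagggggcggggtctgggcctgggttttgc
The Apob window holds TATAAA at −60 and CAAAG at −42 on the strand of the gene, and CAAAG at −99 and −91 and GATAAG at −154 on the opposite strand. The Mttp window holds CAAAG at −238 and TGACGT at −29, both on the opposite strand. AGGTCA is in neither window. TATAAA was found in 2 of the 8 windows, those of Fabp1 and Apob, and 1 of these genes was higher in humanized mice while the other had a negative LFC.

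Apob (ENSMUSG00000020609, chromosome 12, 7977648 to 8016835) had RPKM values of 19.3, 13.2, 15.7, 19.2 and 16.0 in germ-free mice 1 to 5. Humanized mice ranged from 1.74 through a median of 5.53 to 18.5 in mouse 6. The spread between mice was wider in the humanized group, with a coefficient of variation of 78.0% against 15.5%. The means of 16.7 ± 2.59 (SD, n = 5) and 7.73 ± 6.03 (SD, n = 6) gave an LFC of −1.11 (SE 0.44, 95% interval −1.97 to −0.25), which did not pass (FDR = 0.0393, edgeR's exact test). The exact two-sided permutation test gave p = 0.0238. Without humanized mouse 6 the LFC was −1.59 and was called (FDR = 9.42e-05, edgeR's exact test), in a fit where 8.11% of all genes were higher and 9.39% lower. Apob was also called under total-count normalization, with an LFC of −1.32 (FDR = 0.00943), and under scaling to epithelial markers, with an LFC of −1.47 (FDR = 0.00122).

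Mttp (ENSMUSG00000028158, chromosome 3, 138089855 to 138143388) had 0.705, 0.953, 0.837, 0.806 and 0.626 RPKM in germ-free mice 1 to 5. Humanized mice 1 to 5 lay between 0.641 and 1.03 RPKM, and mouse 6 reached 5.22 RPKM, 7.50 times the median of the other 5. The LFC of 0.97 (SE 0.53, 95% interval −0.08 to 2.01, FDR = 0.175 by edgeR's exact test) therefore rested on 1 mouse, and without it the LFC was 0.02 (FDR = 0.974). The log2 ratio of Apob to Mttp was 4.24 ± 0.38 (SD, n = 5) for the germ-free group and 2.36 ± 0.77 (SD, n = 6) for the humanized group. The groups did not overlap in this ratio (difference −1.88, exact two-sided permutation p = 0.00433, adjusted 0.00433). When single mice were left out, the difference lay between −2.09 and −1.66. The ratio was not low in the same way in all humanized mice. In mouse 6, at 1.81, Apob lay within the germ-free range and Mttp was high, whereas mice 1 to 5 had Apob below every germ-free mouse.

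Apoa1 and Apoa4 lie in 1 gene cluster on chromosome 9, with Apoc3 between them, and encode the apolipoproteins A-I, the main protein of HDL, and A-IV, a protein of chylomicrons. In humanized mice both varied more between animals than any other gene of the 10, with coefficients of variation of 156% and 187%, and neither passed the test. Apoa1 (ENSMUSG00000032083, 46228580 to 46230466) had RPKM values of 3.53, 61.0, 5.37, 17.8 and 6.79 in germ-free mice 1 to 5. In humanized mice it was 0.0871 at the lowest, 0.544 at the median and 15.3 at the highest, with 6.73 in mouse 5. Thus 4 of 6 humanized mice lay below every germ-free mouse, and humanized mice 5 and 6 lay within the germ-free range. The LFC was −2.26 (SE 1.10, 95% interval −4.43 to −0.10, FDR = 0.104 by edgeR's exact test), and the exact two-sided permutation test gave p = 0.0390. Single mice decided this value. Without humanized mouse 6 the LFC was −3.52 and was called (FDR = 0.00851, edgeR's exact test), and without germ-free mouse 2 it was −1.08 (FDR = 0.493).

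Apoa4 (ENSMUSG00000032080, 46240696 to 46243459) was counted 26, 61, 18, 42 and 52 times in germ-free mice 1 to 5 and 0, 0, 9, 4, 67 and 317 times in humanized mice 1 to 6. These counts correspond to 0.227, 0.642, 0.170, 0.371 and 0.410 RPKM in germ-free mice. In humanized mice the median was 0.0806 RPKM, and mouse 6 reached 3.49 RPKM, 61.5 times the median of the other 5. In the mice without a count, 3 counts would correspond to at most 0.0450 RPKM. The LFC of 1.02 (SE 1.11, FDR = 0.560 by edgeR's exact test) and the difference in mean log2(RPKM + 0.1), −0.46 (exact two-sided permutation p = 0.656), had opposite signs, and without humanized mouse 6 the LFC turned to −0.94 (FDR = 0.528). No direction can be given for Apoa4. Apoa4 also overlaps the annotated gene Gm10680, which had up to 174 counts in a mouse. Of the 4 ratios of paired genes computed, those of Apoa4 to Apoa1 and of Fabp1 to Fabp2 are not read here, because Apoa4 in humanized mice 1 and 2 and Fabp1 in germ-free mice lay near or below the pseudocount, which then sets the ratio.

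Small intestinal markers were examined beside these genes. The 14 markers summed to 1073 to 1477 CPM in germ-free mice and to 752 to 1647 CPM in humanized mice (exact permutation test, two-sided p = 0.121), and the highest sum was that of humanized mouse 6. The mean sum of humanized mice was lower by 284 CPM with all mice, a difference of −416 CPM without humanized mouse 6 (exact permutation p = 0.0159) and of −441 CPM under total-count normalization (exact permutation p = 0.0303). The aminopeptidase Anpep was at 309.5 CPM in that mouse and between 9.42 and 27.2 CPM in the other humanized mice. The mitochondrial urea cycle enzyme Cps1 was at 62.4 CPM there and at most 3.87 CPM in the other humanized mice, and the aminopeptidase Enpep was at 200.8 CPM there and at most 38.4 CPM in the others. Trehalase (Treh) lay between 0.323 and 1.41 CPM in humanized mice 1 to 5 and at 5.01 CPM in mouse 6, within the germ-free range of 1.95 to 5.49 CPM. Over the whole list, mouse 6 had the highest level among humanized mice for 9 of the 14 markers, and Alpi, Slc5a1, Lct, Slc10a2 and Reg1 were highest in another mouse. Germ-free mouse 2, which had the highest Apoa1, also had the highest Anpep and Cps1 among germ-free mice, at 105 and 4.81 CPM. Of the 14 markers, Gata4 and Lct were at or below 0.16 CPM in humanized mouse 6 and at most 0.46 CPM in any mouse. The Paneth cell gene Defa24 was at 1.96 CPM in humanized mouse 6 and at most 0.11 CPM in any other mouse. Fabp6, another fatty acid-binding protein gene, looked up after the data were seen, was at 132 RPKM in humanized mouse 6. It lay between 4.88 and 21.8 RPKM in the other humanized mice and between 7.18 and 35.3 RPKM in germ-free mice, highest in mouse 2. Of the 11 small intestinal markers tested, 0 were called higher and 3 lower in humanized mice, among them sucrase-isomaltase (Sis, LFC −1.59, SE 0.51, FDR = 0.00873 by edgeR's exact test), which was picked after its value was seen. The part of these cells in the apolipoprotein values was not tested. The 7 hepatocyte markers summed to 22.3 to 28.3 CPM in germ-free mice and to 28.8 to 64.8 CPM in humanized mice (exact permutation test, two-sided p = 0.0108), nearly all of it the transaminase Tat, 1 of 2 tested and the 1 called higher. The difference of 13.7 CPM fell to 9.36 CPM under total-count normalization (exact permutation p = 0.0606) and to 8.61 CPM without humanized mouse 5. The defining markers Fgb and Alb were at 0 and at most 0.17 CPM in any mouse.

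**Figure D3:**
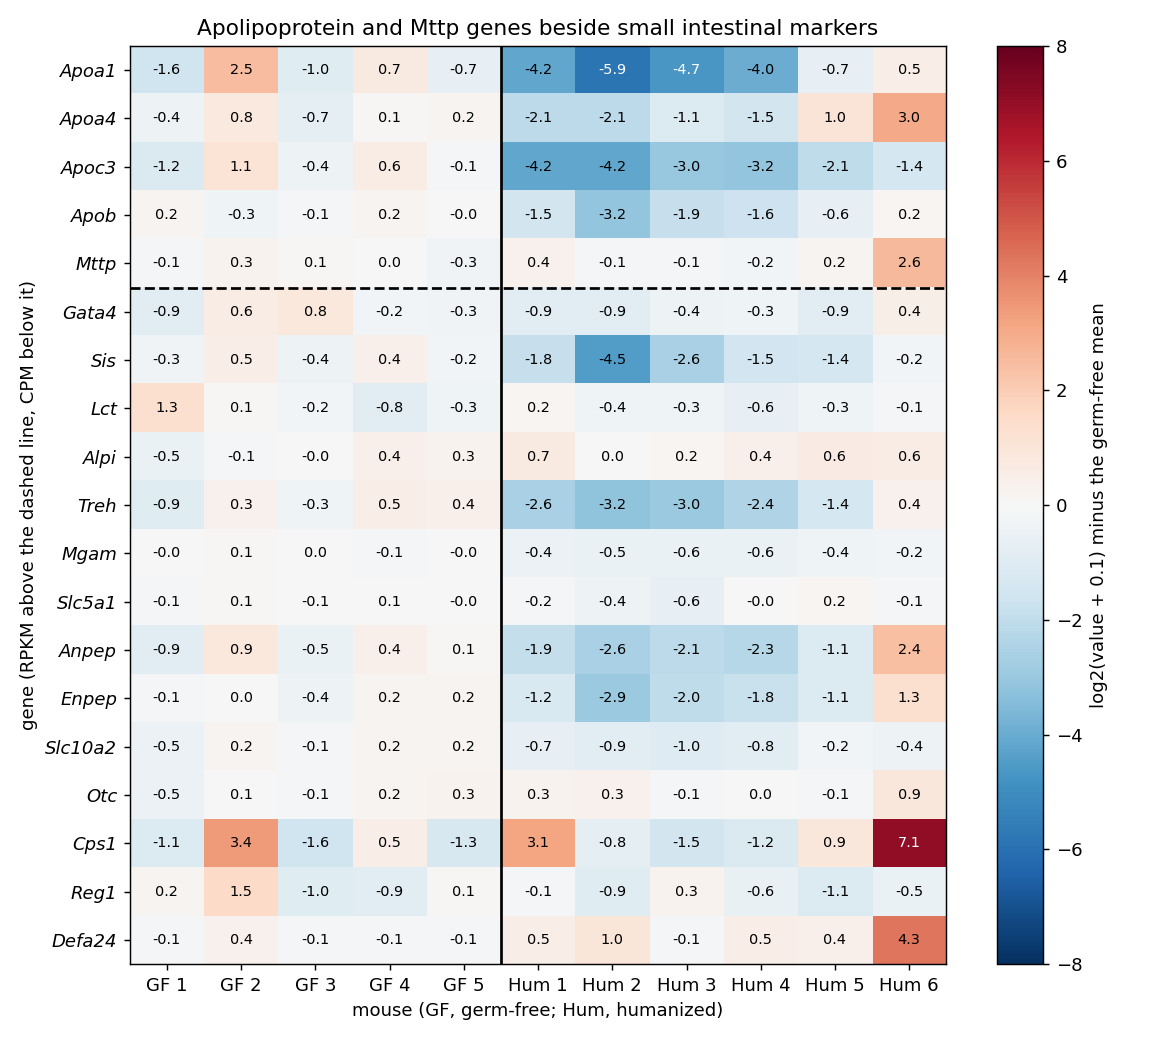
Heat map of apolipoprotein genes and Mttp (above the dashed line, RPKM) and of small intestinal markers (below it, CPM) in each mouse, as log2(value + 0.1) minus the germ-free mean. The column of humanized mouse 6 is high for Apoa4, Mttp, Anpep (309.5 CPM) and Cps1 (62.4 CPM), while humanized mice 1 to 4 are low for Apoa1.

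Apoe, the apolipoprotein through which remnants bind to their receptors, and a major product of tissue macrophages, was abundant in all mice. Apoe (ENSMUSG00000002985, chromosome 7, 19696109 to 19699166) had RPKM values of 94.4, 73.2, 97.6, 102 and 80.1 in germ-free mice 1 to 5. In humanized mice it was 15.0 at the lowest in mouse 5, 61.7 at the median and 83.4 at the highest. The groups overlapped in 1 humanized mouse, which lay above 2 germ-free mice. Means were 89.4 ± 12.1 (SD, n = 5) and 55.0 ± 24.0 (SD, n = 6), and the LFC of −0.70 (SE 0.31, 95% interval −1.31 to −0.09) did not pass (FDR = 0.0758, edgeR's exact test). The exact two-sided permutation test gave p = 0.0238. Without humanized mouse 5 the LFC was −0.51 and still missed the threshold (FDR = 0.0102). The difference in mean log2(RPKM + 0.1) was −0.87 with all mice and −0.53 without humanized mouse 5. The exact permutation p rose to 0.0762 without germ-free mouse 1 or 3 and to 0.0810 without germ-free mouse 4.

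The 10 macrophage markers summed to 220 to 291 CPM in germ-free mice and to 68.9 to 383 CPM in humanized mice (exact permutation test, two-sided p = 0.652), and 2 of them were called lower. Of the 10, 9 had an LFC below 0, with a median of −0.51, and without Lyz2 the sum ranged from 135 to 185 CPM in germ-free mice and from 38.0 to 168 CPM in humanized mice (exact permutation p = 0.0390). Divided by all 10 markers within a mouse, the log2 ratio of Apoe differed by −0.54 (exact permutation p = 0.00649, adjusted 0.0260). With the 9 markers other than Lyz2 it differed by −0.16 (exact permutation p = 0.106, adjusted 0.127), so that the first difference rested on Lyz2. Divided by the endothelial markers, it was 0.21 higher (exact permutation p = 0.0801, adjusted 0.120). These ratios were chosen after the data were seen.

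**Figure D4:**
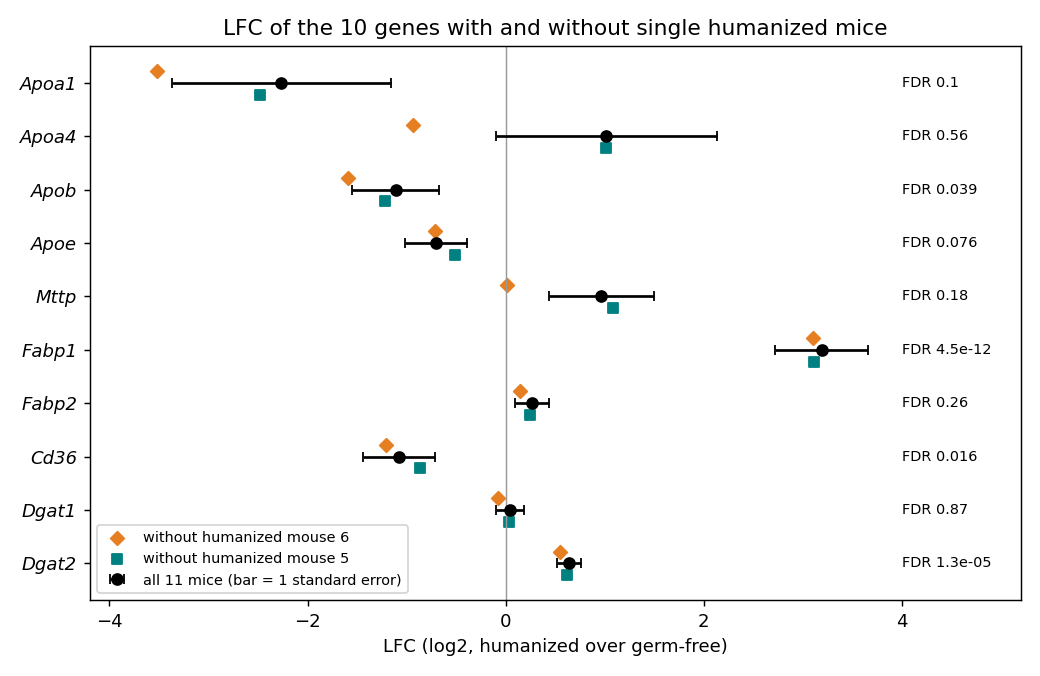
LFC of the 10 genes (horizontal axis, log2 of humanized over germ-free mice) with all 11 mice (black, bar of 1 SE) and without humanized mouse 5 or 6. Fabp1 (LFC 3.19) and Dgat2 (0.64) barely move, whereas without mouse 6 Apoa4 crosses 0 to −0.94 and Mttp falls to 0.02.

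Other genes of the pathway were described from 6 lists, by the same test and beside the 19.3% of all genes tested that were called in either direction. Among the other apolipoproteins, 0 of 7 tested genes were higher and 2 were lower. Apoc3, which lies between Apoa1 and Apoa4 and inhibits lipolysis, fell from 1.98 ± 1.19 RPKM (SD, n = 5) to 0.191 ± 0.230 RPKM (SD, n = 6), with 0 counts in humanized mice 1 and 2 (LFC −3.33, SE 0.72, FDR = 2.33e-04 by edgeR's exact test). Its groups did not overlap, humanized mouse 6 included, and without that mouse its LFC was −4.07 and it was still called. Apoc3 passed the filter on low counts through its germ-free counts, since its humanized counts alone would not have passed. Without a filter it was also called (LFC −3.33, FDR = 2.48e-04 by edgeR's exact test). Apod, a lipocalin and the other gene called, was under 1 RPKM in mean in both groups (LFC −2.45, FDR = 4.92e-04). Apoa5, the remaining gene of the cluster, was below the filter in both groups.

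Among 20 genes of chylomicron assembly and export, 4 were higher and 0 were lower, with a median LFC of 0.12. DESeq2, and edgeR's exact test at FDR below 0.05, each gave 7 higher and 1 lower. Of all genes, DESeq2 called 11% higher and 11% lower, and the exact test at FDR below 0.05 called 14% higher and 14.6% lower. Apobec1, which edits the Apob transcript to the intestinal form, rose from 9.27 ± 1.26 to 16.4 ± 4.16 RPKM (LFC 0.83, SE 0.16, FDR = 1.25e-05 by edgeR's exact test) while Apob itself was not called. P4hb, the partner subunit of Mttp, rose from 202 to 259 RPKM (LFC 0.36, FDR = 2.94e-04), and Sar1b, the small GTPase of chylomicron transport, from 50.5 to 63.8 RPKM (LFC 0.34, FDR = 7.04e-04). P4hb also serves proteins other than Mttp and was far more abundant than Mttp on the RPKM scale. Both of these small changes were lost under total-count normalization, with LFC values of 0.17 for P4hb (FDR = 0.0761) and 0.15 for Sar1b (FDR = 0.122). Under that normalization 1 gene of this list was higher and 1 lower, beside 3.89% and 18.2% of all genes. Under scaling to epithelial markers 1 was higher and 2 were lower, beside 2.41% and 14.2% of all genes. Scaled to those markers, P4hb had an LFC of 0.10 and Sar1b of 0.07, and neither was called. Markers of plasma cells and B cells also moved with colonization, from 258 to 330 CPM in sum in germ-free mice to 459 to 1282 CPM in humanized mice, with 4 of 7 called higher and 0 lower, and their part in these values was not tested.

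Of 20 tested genes of fatty acid and cholesterol uptake and activation, 5 were higher and 4 lower, with a median LFC of 0.04. Slc27a2, a fatty acid transporter and acyl-CoA synthetase, rose from 1.43 to 3.01 RPKM (LFC 1.07, SE 0.30, FDR = 0.00410 by edgeR's exact test), and Acsl3, an acyl-CoA synthetase of lipid droplets, rose from 38.6 to 56.4 RPKM (LFC 0.55, FDR = 0.00172). Neither passed with the quasi-likelihood test (FDR = 0.0189 and 0.0134), and both lost the call when certain germ-free mice were left out (mouse 1, 2, 3 or 5 for Slc27a2, with an FDR of up to 0.0214, and mouse 3, 4 or 5 for Acsl3, with an FDR of up to 0.0125). Without humanized mouse 6 the LFC of Slc27a2 was 0.67 and was called. Cav1, the caveolin that is abundant in endothelium and muscle, fell from 17.3 to 6.59 RPKM (LFC −1.39, FDR = 1.27e-04), alongside the endothelial and smooth muscle markers above. Fabp5, the epidermal-type fatty acid-binding protein, fell from a range of 1.62 to 2.38 RPKM to one of 0.850 to 1.55 RPKM (LFC −0.73, FDR = 0.00199), in the opposite direction to Fabp1, and was not called without germ-free mouse 1 or 3 (FDR up to 0.0122). Leaving out single mice gave 2 to 5 higher and 3 to 5 lower genes. With total-count normalization 1 gene of the list was higher and 5 lower, and with epithelial scaling 0 were higher and 6 lower.

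Triglyceride synthesis and droplet genes held 6 higher and 0 lower genes of 19 tested, with a median LFC of 0.17. Mogat2, which makes diacylglycerol upstream of the DGAT enzymes, rose from 1.41 ± 0.276 RPKM (SD, n = 5) to 3.45 ± 1.80 RPKM (SD, n = 6), with an LFC of 1.29 (SE 0.30, FDR = 6.88e-04 by edgeR's exact test). Its highest value, 6.93 RPKM, was in humanized mouse 6, without which the LFC was 0.95 and Mogat2 was still called. The groups overlapped, since humanized mouse 4 lay at 1.65 RPKM and germ-free mice reached 1.71 RPKM. Mgll, the monoglyceride lipase that acts on the same monoacylglycerol, rose from 14.2 to 32.6 RPKM (LFC 1.20, SE 0.09, FDR = 7.12e-30). Both remained called under every normalization tried. In this list 5 genes were higher and 2 lower under either total-count normalization or epithelial scaling.

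Among 13 tested genes of lipoprotein receptors and lipolysis, 1 was higher and 4 were lower. Lpl, the lipase that releases fatty acids from lipoproteins, rose from 5.42 to 9.96 RPKM (LFC 0.88, SE 0.16, FDR = 2.63e-06 by edgeR's exact test). The cholesterol exporters Abca1 and Abcg1 fell, with LFC values of −1.23 (SE 0.22, FDR = 1.82e-06) and −0.94 (SE 0.18, FDR = 8.58e-05). Nr1h3, the oxysterol receptor known to drive both exporters, also fell (LFC −0.55, SE 0.13, FDR = 9.54e-04), from 9.78 to 6.66 RPKM. The summed endothelial markers and the macrophage markers other than Lyz2 were lower as well, as given above, and their part in these values was not tested.

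Nr1h3 was 1 lower gene among 18 tested transcription factors, of which 2 were higher, whereas total-count normalization gave 1 higher and 4 lower and epithelial scaling 1 higher and 3 lower. Pparg, a nuclear receptor for fatty acids, rose from 35.1 to 58.8 RPKM (LFC 0.75, SE 0.09, FDR = 3.26e-12 by edgeR's exact test). Hnf4a, an enterocyte factor known to bind many of the genes above, rose from 150.4 to 202 RPKM (LFC 0.43, SE 0.10, FDR = 6.08e-04) but was not called under total-count normalization (LFC 0.23, FDR = 0.0228) or epithelial scaling (LFC 0.16, FDR = 0.197). Ppara, a receptor known to induce Fabp1 and Cd36 in liver, stood at 15.0 and 14.7 RPKM (LFC −0.03, SE 0.13, FDR = 0.892).

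**Figure D5:**
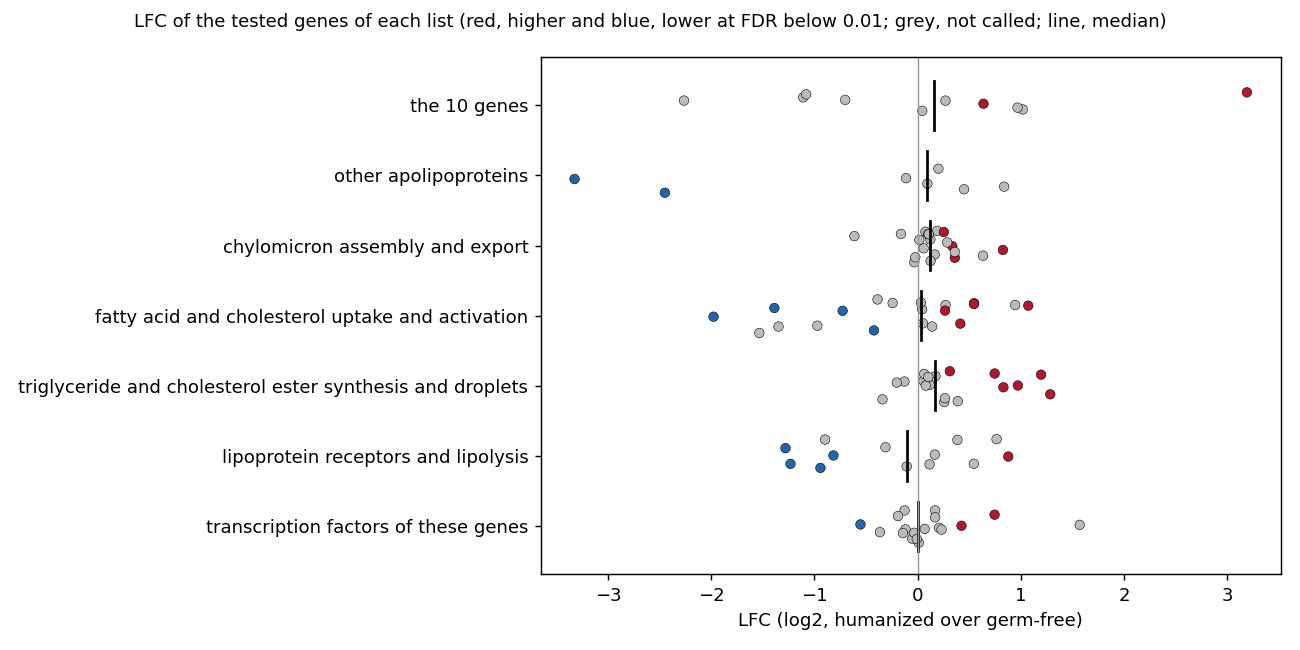
LFC (log2, humanized over germ-free mice) of each tested gene of the 10 genes and of the 6 pathway lists, 1 point per gene, with genes called at FDR below 0.01 in red (higher) or blue (lower) and a line at the median. Called genes lie on both sides of 0 for uptake and activation (5 higher, 4 lower), and on the right only for triglyceride synthesis (6 higher) and for assembly and export (4 higher).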

How the data were processed

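RNA of colonic tissue was sequenced with 101 bp paired-end reads. Per the labels and methods, the authors made the reads with bcl2fastq 2.17.1.14, aligned them to mm10 with TopHat2 2.1.0 and Bowtie2 2.2.3, counted them per gene with featureCounts (Subread 1.4.6-p5), and deposited raw counts of 43346 genes in 1 table with coding lengths. The strand setting is not given in the sources used here. Each column was assigned by its label. Analysis used R 4.3.3, edgeR 4.0.16, limma 3.58.1 and DESeq2 1.42.0. Genes were filtered with filterByExpr defaults (minimum count 10, minimum total 15, large sample size 10, minimum proportion 0.7), and counts were TMM-normalized and tested between groups with edgeR's exact test, adjusting by Benjamini–Hochberg over all 19863 genes. SE and intervals come from the quasi-likelihood fit. RPKM used the deposited lengths, with a pseudocount of 0.1 on the log2 scale. Single values were compared by exact permutation of the 11 mice.

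The 10 genes, the pathway and marker lists, and the tests were chosen with earlier results of these data known. Named besides the 10 were Apoc3, Apoa5, P4hb, Sar1b, Apobec1, Mogat2, Hnf4a and Ppara, and from each pathway list up to 2 called genes with the highest and 2 with the lowest LFC and at least 1 RPKM in a group. Apod was named after its value was seen. Promoters came from RefSeq (8 of 10 genes matched). Depth limits precision for low genes, and floors of 3 counts cover counting error only. Mice of a group differed beyond sampling noise, with a mean chi-square per gene between 21.2 and 132. The labels name no batch. The test was checked on simulated data. Alternatives were other tests, normalizations, filters, thresholds and pseudocounts, a replicate block, and leaving out each mouse. Nothing was left out of the comparison.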

Additional observations from a re-analysis of the deposited data

Results flagged for a closer look

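In 4 of the 20 groups of values tested (10 genes in each of 2 groups of mice), 1 mouse lay farther from the rest than Dixon's 95% critical value allows, whereas chance flags about 1 in 20. Apoa1 was at 61.0 RPKM in germ-free mouse 2, where the gap to the next mouse took 0.751 of the range of the group (critical value 0.71). Cd36 was at 7.09 RPKM in germ-free mouse 4 (0.785 of the range). Mttp was at 5.22 RPKM in humanized mouse 6 (0.915 of the range), and Apoa4 was at 3.49 RPKM in the same mouse (0.777 of the range).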

How the results depend on the processing

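Across the alternatives, 197 of 216 LFC values of the 10 genes kept their direction and their side of the threshold (DESeq2 gave no p for Mttp), and Fabp1 was called wherever it was tested. Leaving out each mouse in turn gave 2 genes called higher in each case and 0 to 2 called lower, beside 1336 to 2088 of all genes higher and 1486 to 2323 lower, with LFC ranges of −3.52 to −1.08 for Apoa1, −0.94 to 1.33 for Apoa4, −1.59 to −0.90 for Apob, −1.21 to −0.87 for Cd36 and −0.077 to 0.12 for Dgat1, whose difference in mean log2 level ranged from −0.073 to 0.10. Without humanized mouse 6, Apoa1 and Apob were called lower, and without humanized mouse 5, Cd36. Under total-count normalization 2 genes were called lower, against 18.2% of all genes, namely Apob (−1.32) and Cd36 (−1.24), and Dgat1 turned to −0.14 (difference in mean log2 level −0.15). Scaling to epithelial markers likewise gave 2 lower, Apob (−1.47) and Cd36 (−1.31), with Dgat1 at −0.22, called 479 genes higher (2.41%) and 2829 lower (14.2%) in all, and moved the median LFC by −0.25. At FDR below 0.05, 2 genes were lower, Apob (−1.11) and Cd36 (−1.08), against 14.6% of all genes. Requiring an absolute LFC above 1 dropped Dgat2 (0.64) and left 1 higher gene (2.04% of all genes), and requiring 10 counts in every mouse left 1 (9.02%), because Fabp1 was not tested. With a pseudocount of 1, chosen after seeing the data, the difference of Apoa4 turned to 0.10. The cause of these changes was not tested, beyond what their construction shows.

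The mouse numbers did not pair the groups, since correlations of same-numbered mice lay between −0.13 and 0.09. With the number as a replicate block (quasi-likelihood test), in which humanized mouse 6 has no partner, 1 gene was called higher and 1 lower (2.55% of all genes in each direction). Apob was called (−1.78, FDR = 0.00695), Dgat2 was not (0.56, FDR = 0.0220), and Apoa4 (−1.81) and Dgat1 (−0.069) changed sign.

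Of the other genes named, 348 of 394 LFC values kept direction and call. When single mice were left out, Ppara lay between −0.17 and 0.0048, the summed macrophage difference between −55.5 and 7.15 CPM and that of enteric glia between −11.3 and 68.4 CPM, both turned in sign without humanized mouse 5. The difference of enteric glia was −39.1 CPM under total-count normalization. That sum was nearly all Erbb3, at 472 to 873 CPM, whereas 4 of the 6 glial markers were called lower and 0 higher, with 5 LFC values below 0 and a median of −1.63. Depth limits Fabp1, Apoa4 and Apoc3, which had fewer than 10 counts in several mice.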
